A study of Mus musculus with 18 samples.

Results

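The transcriptional response to MDP was measured in macrophages labelled as TLR4 knockout, in 6 of the 18 sequenced samples: 3 libraries from TLR4-knockout macrophages treated with MDP and 3 from TLR4-knockout macrophages treated with water. The members are these 6 samples, chosen by their labels, and all expressed genes were described in them. The cells were bone marrow-derived macrophages, which grow out of marrow progenitors in medium conditioned by L929 cells, a mouse fibroblast line that secretes the macrophage growth factor M-CSF. All groups came from C57BL/6J mice and received their treatment for 24 h in serum-free IMDM, starting at day 7 of culture. Set beside them below were knockout macrophages given GM (GlcNAc-MurNAc, a disaccharide of bacterial peptidoglycan), and wild-type macrophages given MDP or water, with 3 libraries per group. MDP is written MurNAc-D-Ala-L-Gln in the labels. The usual NOD2 ligand of that name is MurNAc-L-Ala-D-isoGln, and which of these the cells received is not settled by the files. Doses, the knockout allele and the part of Tlr4 that it removes are not given in the sources used here. The samples of a group are called biological replicates without word on animals or cultures, so a p-value here reflects variation among these libraries, some of which may be technical.

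Muramyl dipeptide is a small fragment of peptidoglycan that is sensed inside cells. After uptake, the kinase NAGK phosphorylates it, the cytosolic receptor NOD2 binds it, and NOD2 recruits the kinase RIPK2, on which cIAP and XIAP ubiquitin ligases build the chains that switch on NF-kB and MAP kinases. TLR4 senses lipopolysaccharide at the cell surface and in endosomes, through MyD88 towards NF-kB and through TRIF towards type I interferon. The knockout cells are labelled as lacking this receptor, and its loss was not measured here beyond the Tlr4 counts that follow.

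Tlr4 (ENSMUSG00000039005; GRCm39 chromosome 4, 66745821 to 66848521) was still counted in the knockout libraries, at 48.2, 48.6 and 49.2 CPM (counts scaled to the size of each library) with MDP and 51.9, 52.9 and 46.2 CPM with water. In wild-type libraries it stood at 129, 117 and 131 CPM with MDP and 155, 149 and 229 CPM with water. Every knockout library lay below every wild-type library, and MDP and water did not separate in knockout cells (log2 fold change -0.04, 95% interval -0.18 to 0.09). The 6 libraries held 15532973 to 20682663 counts. Mitochondrial genes took 2.96% to 3.16% of the counts with MDP and 3.35% to 3.43% with water, and whether this moved other values was not tested. Replicates lay close together: the biological coefficient of variation was 6.49% with MDP and 5.69% with water, against 8.1% and 35.4% in wild-type MDP and water, where 1 library, wild-type water replicate 3, stood apart.

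Of 56748 genes in the table, 14158 passed the filter on low counts, and these carried 99.89% of the reads. MDP raised 1475 of them (10.4%) and lowered 1480 (10.5%) at an adjusted p below 0.05 (edgeR's quasi-likelihood test with Benjamini-Hochberg adjustment, fitted to the 6 libraries). The called changes were mostly small: the median log2 fold change was 0.42 for the rises and -0.37 for the falls, while the median over all 14158 was 0.0007. At least 2-fold, 269 genes rose (1.9%) and 115 fell (0.812%), and at least 4-fold 31 rose and 8 fell. The larger changes were thus more often rises, although the counts of all called genes were near equal. Protein-coding genes made up most calls, 1377 higher and 1394 lower of 11840, and 63 of 1401 long noncoding RNAs were higher and 58 lower. On the first principal component (67.9% of the variance in 1000 variable genes) the MDP libraries lay at 11.2 to 16.7 and the water libraries at -16.4 to -12.3. How many genes pass depends on which libraries set the spread: when all 18 shared 1 estimate, 427 genes were called, 426 of them also called by the 6 libraries and in the same direction.

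**Figure D1:**
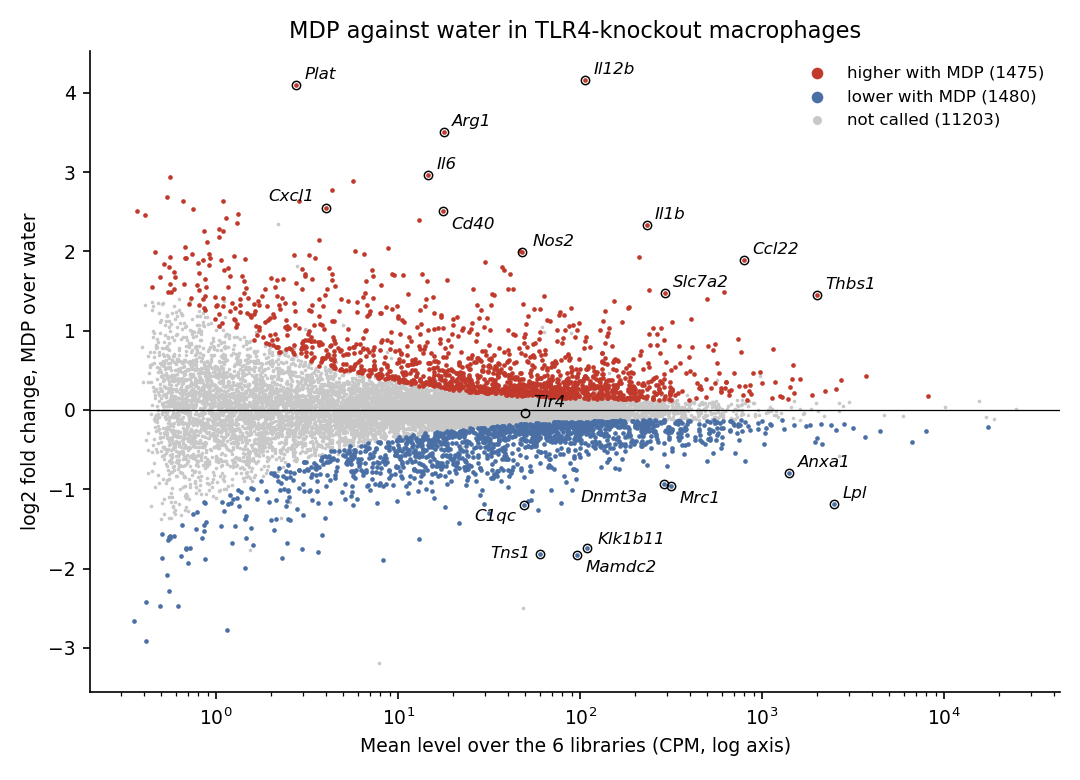
Each point is 1 of 14158 genes, with its mean level over the 6 TLR4-knockout libraries (CPM, log axis) against its log2 fold change, MDP over water; red and blue mark genes that passed an adjusted p of 0.05 upward (1475) and downward (1480). Among the labelled genes Il12b lies highest, at 4.16, Mamdc2 lowest, at -1.84, and Tlr4 at -0.04.

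Genes that sense and handle muramyl peptides mostly changed little in size. Of 26 genes of the NOD2 pathway and of muramyl peptide uptake, 7 rose (26.9%), 2 fell (7.69%) and 17 did not pass. Over all tested genes 10.4% rose and 10.5% fell, and the knockout MDP and water counts of each list below are to be read beside these shares. The median log2 fold change of the list was 0.07. Nod2, the receptor itself, stood at 22.1, 23.1 and 20.9 CPM with MDP and 17.3, 17.4 and 16.9 CPM with water. Its groups did not overlap, and it rose 1.29-fold (log2 0.36 ± 0.09 SE, adjusted p = 0.00355 by edgeR). Ripk2 had 25.4, 26.6 and 28.8 CPM with MDP and 22.4, 20.02 and 23.8 CPM with water, a log2 rise of 0.29 ± 0.09 (adjusted p = 0.0135 by edgeR) that was lost when MDP replicate 3 or water replicate 2 was left out. The cIAP genes Birc2 and Birc3, whose products ubiquitinate RIPK2, rose by 0.52 ± 0.09 and 0.48 ± 0.05 on the log2 scale. Nagk, the activating kinase, did not pass (log2 -0.08, 95% interval -0.19 to 0.04). The largest change was a fall of a transporter: Slc46a3, a lysosomal carrier linked to muramyl peptide export to the cytosol, had 11.8, 9.31 and 11.6 CPM with MDP and 28.5, 23.6 and 24.4 CPM with water. It was lower in every MDP library, 2.33-fold on average (log2 -1.22 ± 0.11). Slc15a4, another endolysosomal peptide transporter, fell as well (log2 -0.27 ± 0.06). In the fit of all 18 libraries 1 gene of the list was called higher and 1 lower.

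Many secreted inflammatory signals rose. Of 28 tested inflammatory cytokines and chemokines, 16 rose, 11 of them at least 2-fold, and 1, Ccl6, fell (log2 -0.27 ± 0.05); the median was 0.74. Il12b (ENSMUSG00000004296; GRCm39 chromosome 11, 44290890 to 44304860), which encodes the p40 subunit shared by IL-12 and IL-23, stood at 149, 239 and 214 CPM with MDP and 9.88, 11.6 and 12.5 CPM with water. The groups lay far apart, at 17.9-fold (log2 4.16 ± 0.27, adjusted p = 0.000746 by edgeR), and its 3 MDP libraries varied more than the water ones. Il6 (ENSMUSG00000025746; GRCm39 chromosome 5, 30218112 to 30224979), which encodes interleukin-6, an inducer of the acute phase, had 21.1, 27.9 and 28.5 CPM with MDP and 3.72, 2.98 and 3.35 CPM with water. It rose 7.77-fold (log2 2.96 ± 0.14, adjusted p = 5.87e-18 by edgeR), with every MDP library several times above every water library. Il1b, the precursor of the fever-inducing cytokine IL-1β, was counted at 333, 409 and 418 CPM with MDP and 74.3, 77.8 and 80.0 CPM with water, a 5.02-fold rise (log2 2.33 ± 0.08, adjusted p = 3.7e-10 by edgeR).

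Neutrophil-attracting chemokines rose as well. Cxcl3 had 69.3, 73.8 and 81.9 CPM with MDP and 18.3, 19.1 and 18.7 CPM with water, log2 2.01 ± 0.07 (adjusted p = 3.7e-21 by edgeR). Cxcl1 was lower in level, at 6.11, 7.24 and 7.36 CPM with MDP and 1.27, 1.29 and 0.931 CPM with water, and rose by 2.55 ± 0.22. The groups did not overlap for either gene. Lif, an interleukin-6 family cytokine, averaged 4.91 ± 0.742 CPM with MDP and 0.827 ± 0.575 CPM with water (SD, n = 3 each) and rose by 2.64 ± 0.31. Tnf, which encodes the cytokine TNF, had 69.4, 64.6 and 83.4 CPM with MDP and 51.6, 65.1 and 60.7 CPM with water. Its groups overlapped and the difference did not pass (log2 0.30, 95% interval 0.04 to 0.56, adjusted p = 0.112 by edgeR), but it passed upward without MDP replicate 2 (adjusted p = 0.0153 by edgeR), without water replicate 2 (0.0446) and with the replicate block (0.011). Ccl2, the main monocyte chemoattractant, averaged 65.7 ± 7.36 CPM with MDP and 65.5 ± 7.21 CPM with water, log2 0.01 with a 95% interval of -0.18 to 0.20. Il10, which encodes an anti-inflammatory cytokine, was too low to test, at 0.216, 0.557 and 0.478 CPM with MDP and 0.106, 0.276 and 0.372 CPM with water. Of the 16 rises in this list, 10 were also called in the fit of all 18 libraries.

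**Figure D2:**
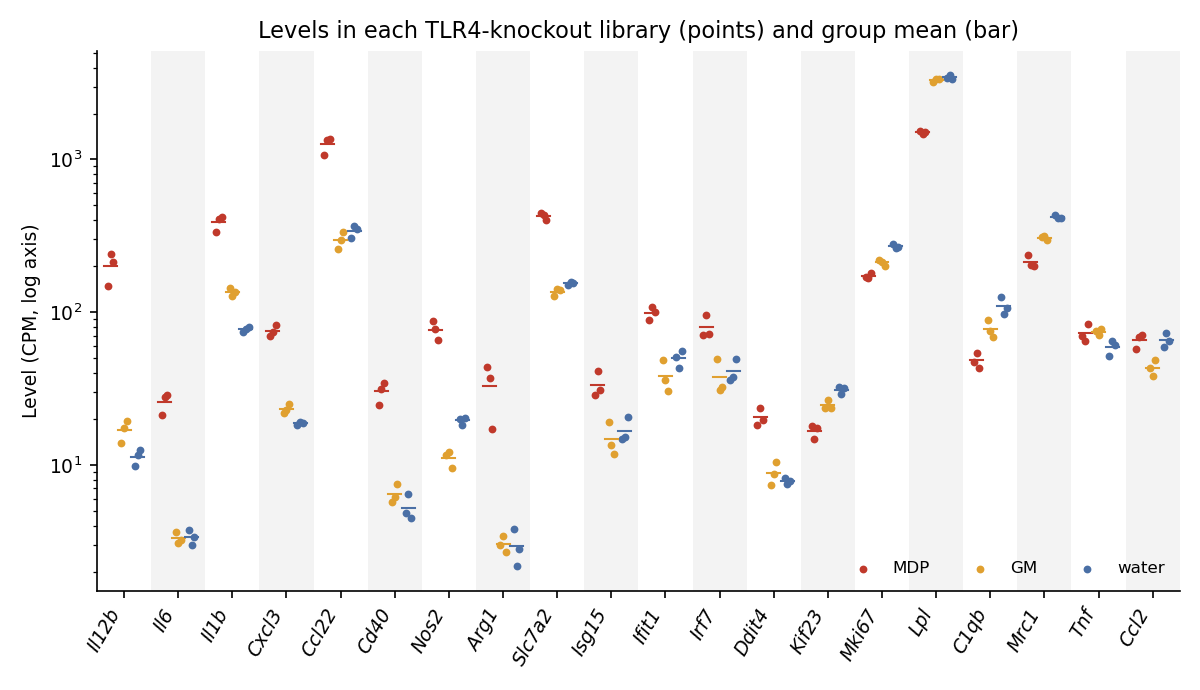
Levels (CPM, log axis) of 20 genes in the 9 TLR4-knockout libraries, with MDP in red, GM in yellow and water in blue; points are libraries and short bars are the means of 3. The MDP points lie apart from the water points for all genes shown except Tnf and Ccl2, and Arg1 has 1 MDP library, at 17.3 CPM, below the other two.

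NF-kB targets and the brakes that NF-kB induces on itself rose nearly as a block. Of 28 genes, 25 rose and none fell, with a median log2 fold change of 0.47. Cd40, a co-stimulatory receptor of the TNF receptor family, had 24.6, 31.5 and 34.4 CPM with MDP and 4.83, 6.43 and 4.47 CPM with water and rose 5.71-fold (log2 2.51 ± 0.14, adjusted p = 4.84e-12 by edgeR). Ptgs2, the inducible cyclooxygenase that starts prostaglandin synthesis, was at 48.5, 43.9 and 48.4 CPM with MDP and 9.66, 13.4 and 15.8 CPM with water, log2 1.87 ± 0.12. Both genes were higher in every MDP library. Cd83, a maturation marker of antigen-presenting cells, rose by 1.28 ± 0.08, and Traf1, an adaptor of TNF receptors, by 1.00 ± 0.08. All other rises in this list were below 2-fold, and 12 of the 25 rises were called in the fit of all 18 libraries.

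Promoters were read from RefSeq on build GRCm38.p6, which differs from the GRCm39 build of the counts, as 300 bases from 250 before to 50 after the annotated start. An NF-kB-type site was spelled GGG, any 2 bases, then TTTCC and searched on both strands. It was found in 8 of 31 called cytokine and NF-kB genes with a promoter entry (25.8%) and in 1.63% of all 32851 entries. A gene counted if any of its entries matched, but the share over all is per entry, so the units differ. A match is a run of letters and no evidence of binding, and these genes were grouped with their change known. Il6 and Cxcl1 are shown because they rose strongly and hold a match, in capitals, which begins 44 bases before the start in Il6 (chr5:30012864-30013163, plus strand) and 89 and 71 bases before it in Cxcl1 (chr5:90890995-90891294, plus strand).
Il6: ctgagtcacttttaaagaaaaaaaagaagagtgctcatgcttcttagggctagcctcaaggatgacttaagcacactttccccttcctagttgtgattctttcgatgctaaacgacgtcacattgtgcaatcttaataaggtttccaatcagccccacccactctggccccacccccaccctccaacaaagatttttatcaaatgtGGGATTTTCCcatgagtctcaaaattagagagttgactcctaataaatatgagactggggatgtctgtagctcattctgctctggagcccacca
Cxcl1: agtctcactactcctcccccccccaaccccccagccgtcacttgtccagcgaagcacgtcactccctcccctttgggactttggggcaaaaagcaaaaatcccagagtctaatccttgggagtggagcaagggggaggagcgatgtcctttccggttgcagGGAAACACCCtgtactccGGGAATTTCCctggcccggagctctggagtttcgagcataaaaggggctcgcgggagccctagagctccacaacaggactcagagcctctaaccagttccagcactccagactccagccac

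Type I interferon-stimulated genes rose without exception among those tested. All 38 tested genes of the antiviral program passed upward, each by less than 3-fold, with a median log2 fold change of 0.61; Ifi44l did not pass the filter on low counts. Mx2, an antiviral GTPase, had 9.08, 13.4 and 9.21 CPM with MDP and 3.72, 3.9 and 4.41 CPM with water, the largest rise of the list (log2 1.41 ± 0.17). Isg15, a ubiquitin-like protein attached to other proteins in infected cells, had 28.5, 41.2 and 30.9 CPM with MDP and 14.7, 15.2 and 20.4 CPM with water, log2 1.02 ± 0.18 (adjusted p = 0.00655 by edgeR). The MDP libraries were higher for both, and replicate 2 was the highest of them. Oasl1, which restrains translation of Irf7, averaged 11.3 ± 1.77 CPM with MDP and 4.91 ± 1.25 CPM with water (SD, n = 3 each) and rose by 1.22 ± 0.16. Ifi44 rose by 1.21 ± 0.16. The median over the list of the centred log2 level was 0.19, 0.41 and 0.26 in the MDP libraries and -0.32, -0.41 and -0.16 in the water libraries, so that the groups did not overlap. The number called was 31 to 38 when any 1 library was left out, but 5 in the fit of all 18 libraries.

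The core of the interferon-stimulated response element was spelled GAAA, any 2 bases, then GAAA, and searched on both strands. It was found in 16 of the 28 list genes with a promoter entry (57.1%, per gene) and in 3.44% of all entries. The list holds genes already known as interferon-stimulated and was written with earlier results of these data known, so these shares are no test. Isg15 (chr4:156200769-156201068, minus strand), with 3 overlapping matches, and Ifit1 (chr19:34640639-34640938, plus strand), with 2 matches, are shown with the matches in capitals. The first match begins 78 bases before the start in Isg15 and 104 before it in Ifit1.
Isg15: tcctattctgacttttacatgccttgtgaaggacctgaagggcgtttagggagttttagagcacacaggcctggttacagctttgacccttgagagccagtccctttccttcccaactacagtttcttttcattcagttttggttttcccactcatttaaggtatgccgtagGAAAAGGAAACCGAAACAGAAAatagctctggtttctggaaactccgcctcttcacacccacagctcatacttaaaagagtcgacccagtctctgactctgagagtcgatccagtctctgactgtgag
Ifit1: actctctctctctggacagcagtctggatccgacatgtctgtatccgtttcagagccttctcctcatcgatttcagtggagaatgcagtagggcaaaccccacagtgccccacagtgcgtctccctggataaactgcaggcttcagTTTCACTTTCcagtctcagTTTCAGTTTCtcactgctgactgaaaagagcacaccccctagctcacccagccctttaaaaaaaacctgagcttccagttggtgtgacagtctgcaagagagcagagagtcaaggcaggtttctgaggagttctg

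A neighbouring program, the interferon-induced GTPases with the MHC class I pathway, rose in part. Of 21 tested genes, 13 rose and 2 fell, with a median of 0.30. Gbp5, a guanylate-binding protein that helps inflammasome assembly, rose by 0.84 ± 0.12, whereas Gbp8 fell (log2 -0.62 ± 0.17), a call lost without MDP replicate 1. The number of falls in the list was 0 without that library and 1 without MDP replicate 3 or water replicate 1. The Gbp and Tgtp genes are close paralogs, so the reads may be split between them. None of these genes was called in the fit of all 18 libraries. Of 14 genes of MHC class II and co-stimulation 4 rose and 7 fell, and 4 fell when water replicate 1 or 3 was left out. The co-stimulatory ligands Tnfsf4 (OX40 ligand), Cd80 and Cd86 rose by 1.63 ± 0.17, 0.85 ± 0.08 and 0.71 ± 0.07. Icosl, another co-stimulatory ligand, fell (log2 -0.35 ± 0.10), a call lost without MDP replicate 2 or water replicate 3. The invariant chain gene Cd74 fell (log2 -0.36 ± 0.05) and the peptide-exchange gene H2-DMa fell (log2 -0.61 ± 0.05).

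**Figure D3:**
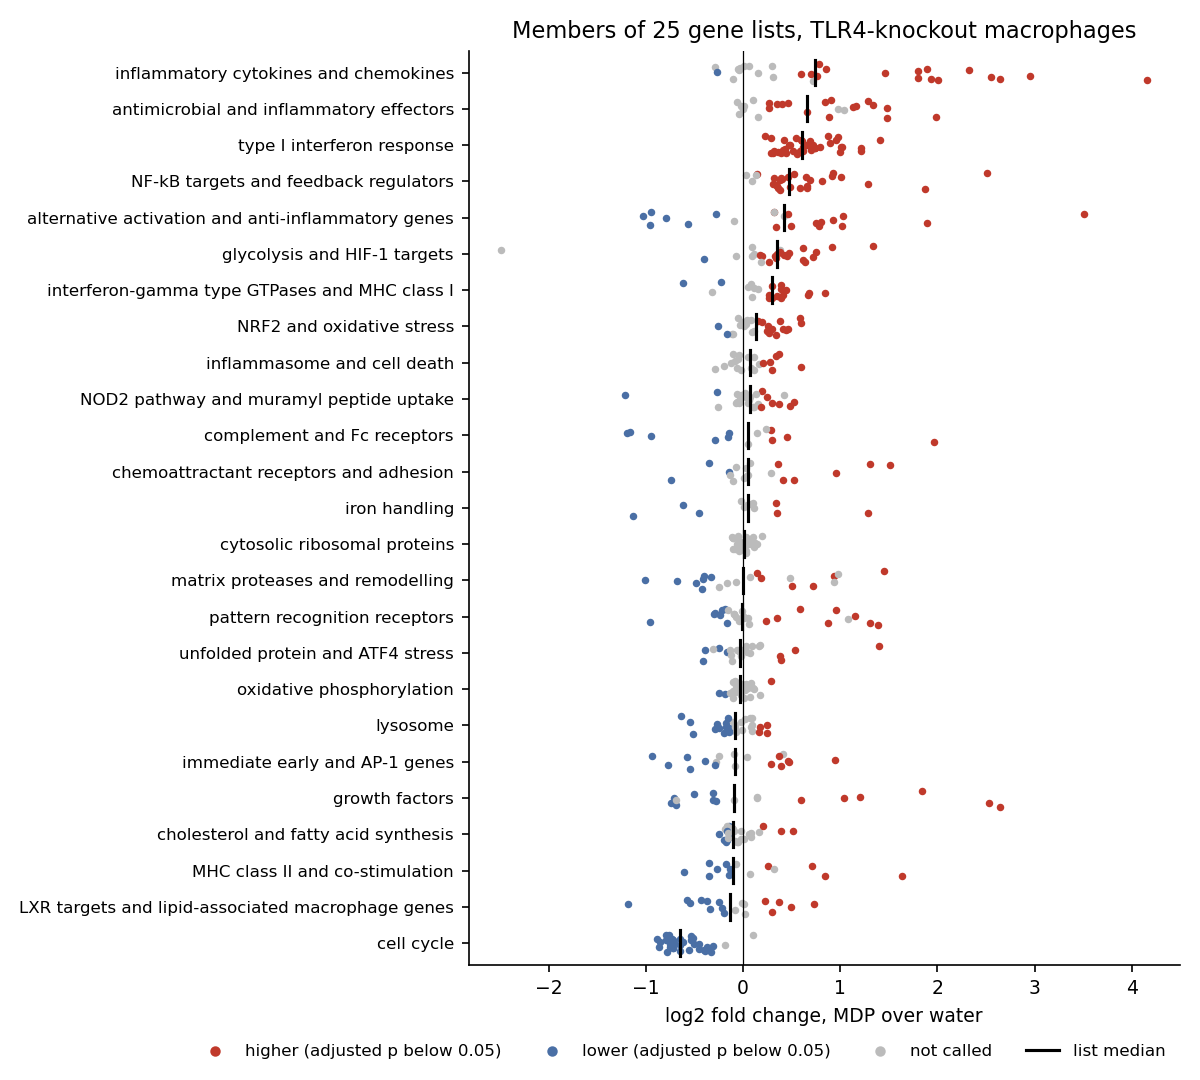
Each point is a tested member of 1 of 25 gene lists, placed by its log2 fold change, MDP over water, in TLR4-knockout macrophages; red passed an adjusted p of 0.05 upward, blue downward, grey did not, and black bars are list medians. Cytokines reach the furthest right, all 38 interferon genes are red, and 33 of 35 cell cycle genes are blue.

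Antimicrobial effectors rose: 16 of 25 passed upward and none downward, with a median of 0.66. Nos2, the inducible nitric oxide synthase, had 87.1, 77.2 and 66 CPM with MDP and 19.97, 18.3 and 20.3 CPM with water, a 3.96-fold rise (log2 1.99 ± 0.09, adjusted p = 3.37e-14 by edgeR). Slc7a2, the transporter that brings in arginine, its substrate, had 448, 436 and 403 CPM with MDP and 151, 158 and 156 CPM with water. The 6 values left a wide gap, and Slc7a2 had the smallest adjusted p of the named genes, 2.23e-22 by edgeR at a log2 of 1.48 ± 0.05. Arg1, the arginase that competes for the same substrate and a marker of alternative activation, had 43.6, 37.2 and 17.3 CPM with MDP and 3.82, 2.16 and 2.79 CPM with water. Its 11.3-fold rise was uneven between libraries (log2 3.50 ± 0.52, adjusted p = 0.0142 by edgeR), and the call was lost when MDP replicate 2 or any 1 water library was left out. Acod1, which makes itaconate, averaged 957 ± 24.1 CPM with MDP and 516 ± 40.3 CPM with water (SD, n = 3 each), log2 0.90 ± 0.05. Saa3, an acute-phase protein, rose by 1.48 ± 0.15, and Camp, the cathelicidin, by 1.33 ± 0.36, at 1.78, 3.09 and 1.97 CPM with MDP and 0.531, 0.826 and 1.43 CPM with water, a call that was lost without MDP replicate 2.

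Among pattern recognition receptors 8 of 26 rose (30.8%) and 7 fell (26.9%), against 10.4% and 10.5% of all tested genes. Cd14, a co-receptor for lipopolysaccharide that works with TLR4, had 679, 779.8 and 694 CPM with MDP and 263, 272 and 289 CPM with water (log2 1.39 ± 0.05, adjusted p = 1.59e-20 by edgeR). Fpr2 and Fpr1, receptors for formylated bacterial peptides, rose by 1.30 ± 0.10 and 0.96 ± 0.07, and Clec4e (Mincle, a sensor of mycobacterial glycolipid) by 1.15 ± 0.07. The mannose receptor Mrc1 moved the other way, with 236, 203 and 202 CPM under MDP and 432, 411 and 411 CPM under water. It was lower in every MDP library (log2 -0.96 ± 0.05, adjusted p = 1.74e-15 by edgeR). The lectin genes Clec10a and Mgl2, which with Mrc1 mark alternatively activated macrophages, fell (log2 -1.04 ± 0.17 and -0.95 ± 0.13). That list of alternative activation and anti-inflammatory genes was mixed, with 12 of 21 tested genes higher and 6 lower. Ccl22, a chemokine of alternatively activated macrophages that attracts regulatory T cells, averaged 1258 ± 166 CPM with MDP and 340.2 ± 31.8 CPM with water (SD, n = 3 each). Pparg, a nuclear receptor of lipid metabolism, fell (log2 -0.79 ± 0.11). Retnla, another such marker, was not tested, with 0.27, 0.0506 and 0.0598 CPM under MDP and 0 CPM in the 3 water libraries.

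Chemoattractant receptors also moved apart, with 6 of 18 higher (33.3%) and 3 lower (16.7%), against 10.4% and 10.5% of all tested genes. Ccr7, which guides cells to lymph nodes, had 297, 395 and 369 CPM with MDP and 113, 126 and 136 CPM with water (log2 1.51 ± 0.14), and Ccr2, the receptor for Ccl2, fell (log2 -0.75 ± 0.06). Inflammasome and cell death genes shifted little in size, at a median log2 fold change of 0.07. Of 20, 6 rose (30%, against 10.4% of all tested genes) and none fell, and Nlrp3 rose by 0.37 ± 0.05. Of 18 immediate early and AP-1 genes 6 rose and 6 fell, with Nr4a1 at 0.94 ± 0.30 and Egr3 at -0.93 ± 0.24. The call of Nr4a1 was lost without MDP replicate 2 or 3 or water replicate 1, and the rises of the list numbered 3 without MDP replicate 3 or water replicate 1 and 4 to 6 without any 1 of the others.

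Further genes of coagulation, transport and adhesion changed strongly. Plat, the tissue plasminogen activator, had 3.35, 6.63 and 5.62 CPM with MDP and 0.106, 0.367 and 0.434 CPM with water, log2 4.09 ± 0.36. Slc1a2, a glutamate transporter, had 11.1, 10.3 and 8.55 CPM with MDP and 1.54, 1.38 and 1.12 CPM with water, log2 2.89 ± 0.20. Itgb8, an integrin subunit that activates TGF-β, rose by 2.77 ± 0.27. These 3 genes were low in the water libraries and higher in each MDP library. Plau, the urokinase-type plasminogen activator, fell instead, with 65.3, 53.7 and 61.3 CPM under MDP and 125, 123 and 116 CPM under water (log2 -1.01 ± 0.06). Procr, the endothelial protein C receptor, averaged 194 ± 10.4 CPM with MDP and 81.9 ± 6.56 CPM with water (SD, n = 3 each). Thbs1, the matrix protein thrombospondin 1, had 2612, 3245 and 2879 CPM with MDP and 1055, 967 and 1193 CPM with water, log2 1.45 ± 0.11. Of 20 tested matrix protease and remodelling genes 6 rose and 7 fell, among them Mmp9, a gelatinase, at 0.93 ± 0.12 and Mmp13, a collagenase, at -0.68 ± 0.08. Among growth factors 6 of 17 rose and 7 fell: Vegfa, which drives vessel growth, rose by 1.20 ± 0.08, while Igf1 and Pdgfa fell (log2 -0.71 ± 0.05 and -0.74 ± 0.09).

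Glycolysis and hypoxia-factor (HIF-1) targets shifted upward, 17 of 25 passing upward and 1 downward, with a median of 0.35. Egln3, a prolyl hydroxylase that HIF-1 induces, had 77.4, 71.1 and 60.1 CPM with MDP and 32.8, 23.9 and 26.3 CPM with water (log2 1.34 ± 0.14). Bnip3, a mitophagy receptor, and Slc16a3, the lactate exporter, rose by 0.92 ± 0.08 and 0.75 ± 0.12, and Slc16a3 lost its call without MDP replicate 1. Hexokinase 3, Hk3, fell (log2 -0.40 ± 0.05). Oxidative phosphorylation did not move with them: of 29 genes 1 rose and 2 fell, and 1 or 2 fell when 1 library was left out. Of 26 NRF2 and oxidative stress genes 13 rose and 2 fell, with Prdx6, a peroxiredoxin, at 0.60 ± 0.05. In the fit of all 18 libraries the rises numbered 2 for glycolysis and 0 for NRF2. Ddit4, an inhibitor of mTORC1, had 18.2, 23.6 and 19.7 CPM with MDP and 8.23, 7.44 and 7.82 CPM with water (log2 1.40 ± 0.12). It belongs to a list of unfolded protein and ATF4 stress genes where 4 of 25 rose (16%) and 4 fell (16%). Over all tested genes the shares were 10.4% and 10.5%. None of 30 cytosolic ribosomal protein genes passed in either direction, at a median of 0.01; among them 0 to 5 passed upward and 0 to 2 downward when 1 library was left out.

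Cell cycle genes fell together. Of 35 genes of replication and mitosis 33 passed downward and none upward, with a median log2 fold change of -0.65. Kif23, a motor protein of cell division, had 18, 14.7 and 17.5 CPM with MDP and 32.2, 29.2 and 31.7 CPM with water, the largest fall of the list (log2 -0.89 ± 0.09, adjusted p = 1.59e-09 by edgeR). Cenpf, a kinetochore protein, had 23.7, 23.2 and 22 CPM with MDP and 45.5, 40.8 and 39.8 CPM with water, log2 -0.86 ± 0.08. The libraries did not overlap for either gene. Kif20a, another mitotic motor, and Prc1, which bundles the midzone spindle, fell (log2 -0.85 ± 0.08 and -0.79 ± 0.07). The centred level of the list was -0.38, -0.26 and -0.32 in the MDP libraries and 0.37, 0.30 and 0.31 in the water libraries. In these bulk samples fewer dividing cells and less of these RNAs per cell cannot be told apart. The count was 31 to 33 without any 1 library and 1 in the fit of all 18 libraries.

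The CCAAT box was found in 23 of the 26 fallen cell cycle genes with a promoter entry (88.5%) and in 37.4% of all entries. TTTGAA, the letters of the cell cycle homology region, stood in 14 of 26 (53.8%) and in 17.9% of all entries. Both were searched on either strand, per gene in the list and per entry over all. This list too holds known genes of its program and was written with earlier results known, so these shares are no test. Kif23 (chr9:61946750-61947049, minus strand) and Cenpf (chr1:189688037-189688336, minus strand) hold both, in capitals.
Kif23: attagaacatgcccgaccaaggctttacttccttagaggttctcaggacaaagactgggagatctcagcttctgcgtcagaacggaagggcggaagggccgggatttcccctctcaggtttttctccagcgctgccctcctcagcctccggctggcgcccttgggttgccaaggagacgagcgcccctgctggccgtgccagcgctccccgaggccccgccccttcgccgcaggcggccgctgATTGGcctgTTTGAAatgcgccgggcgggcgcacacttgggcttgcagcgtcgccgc
Cenpf: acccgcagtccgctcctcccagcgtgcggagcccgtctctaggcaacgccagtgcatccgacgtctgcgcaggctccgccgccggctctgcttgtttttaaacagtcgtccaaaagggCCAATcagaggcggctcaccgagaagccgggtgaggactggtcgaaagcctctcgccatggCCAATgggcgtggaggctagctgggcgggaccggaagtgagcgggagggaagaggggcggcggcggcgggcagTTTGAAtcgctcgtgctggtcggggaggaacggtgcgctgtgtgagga

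**Figure D4:**
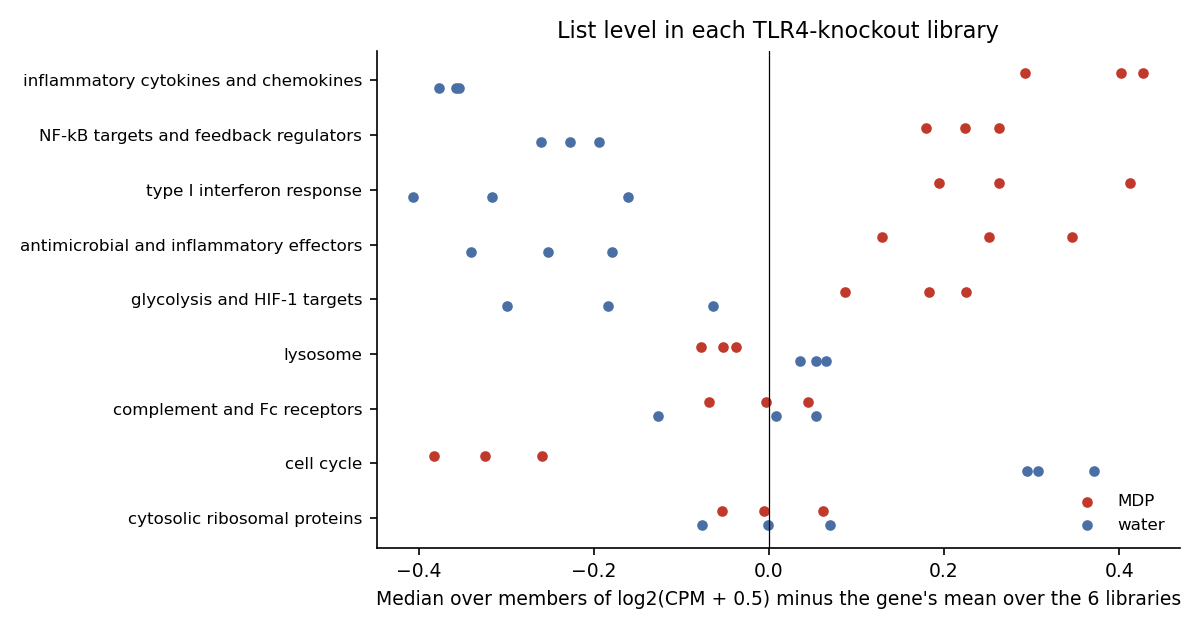
For 9 gene lists, each point is 1 TLR4-knockout library, MDP in red and water in blue; the x axis is the median over tested members of log2(CPM + 0.5) minus the gene's mean over the 6 libraries. MDP and water points separate for 7 lists and overlap for complement and Fc receptors and for ribosomal proteins; cell cycle is the lowest with MDP, at -0.38 to -0.26.

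Lipid handling genes were mixed, with a large fall of 1 abundant gene. Lpl, the lipoprotein lipase, had 1544, 1461 and 1513 CPM with MDP and 3411, 3558 and 3361 CPM with water. It was 2.28-fold lower, with no overlap (log2 -1.19 ± 0.05, adjusted p = 9.23e-21 by edgeR). Among LXR targets and lipid-associated macrophage genes 5 of 18 rose and 9 fell: Fabp4, a fatty acid carrier, and Lipa, the lysosomal acid lipase, fell (log2 -0.58 ± 0.06 and -0.54 ± 0.04), whereas Abca1, the cholesterol exporter, rose by 0.73 ± 0.05. Cholesterol and fatty acid synthesis genes shifted little in size, with falls of at most 0.25 on the log2 scale. Of 29, 3 rose (10.3%, against 10.4% of all tested genes) and 7 fell (24.1%, against 10.5%). Those falls numbered 1 without water replicate 3, 2 without MDP replicate 1, 4 to 6 without any 1 of the others, 4 with the replicate block and 0 in the fit of all 18 libraries. Of 30 lysosome genes 4 rose and 13 fell, led by the proton pump subunit Atp6v0d2 at -0.64 ± 0.05.

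The 3 chains of C1q, which starts the classical complement pathway, were lower, in a list of 13 complement and Fc receptor genes where 4 rose and 6 fell. C1qa, C1qb and C1qc averaged 6.37, 48.3 and 29.9 CPM with MDP and 12.4, 109 and 69 CPM with water. The falls in log2 were -0.95 ± 0.15, -1.17 ± 0.11 and -1.20 ± 0.08, with each MDP library below each water library. Cfb, factor B of the alternative complement pathway, rose instead, with 11.8, 10.3 and 8.79 CPM under MDP and 2.5, 2.8 and 2.67 CPM under water (log2 1.96 ± 0.17). Slc40a1, the iron exporter ferroportin, had 35.7, 33.3 and 32 CPM with MDP and 76.8, 76.2 and 69.9 CPM with water (log2 -1.14 ± 0.07). In the same list of 12 iron genes, Lcn2, which binds bacterial iron carriers, rose by 1.29 ± 0.14. Of that list 3 genes rose (25%) and 3 fell (25%), against 10.4% and 10.5% of all tested genes.

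Steep falls were also seen in a matrix, a cytoskeletal and a protease gene. Mamdc2, a gene for a secreted matrix protein, had 51.6, 36.2 and 37.5 CPM with MDP and 176, 129 and 145 CPM with water, log2 -1.84 ± 0.21. Tns1, which links integrins to actin, had 32.1, 21.9 and 26.1 CPM with MDP and 104, 84.7 and 94 CPM with water, log2 -1.81 ± 0.15. Klk1b11, a kallikrein, fell (log2 -1.75 ± 0.22), in a family of near-identical genes among which reads may be split. In all 3 genes the MDP libraries lay below the water libraries. Dnmt3a, a DNA methyltransferase, had 205, 193 and 197 CPM with MDP and 386, 372 and 380.5 CPM with water. Its fall was smaller but tight (log2 -0.93 ± 0.05, adjusted p = 2.16e-17 by edgeR). Anxa1, the anti-inflammatory annexin, fell (log2 -0.80 ± 0.05), and the membrane protein Emp1 fell (log2 -1.26 ± 0.07).

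Markers of the labelled cell type were high in both groups. The summed level of 15 macrophage markers was 29610 to 31200 CPM with MDP and 29270 to 31370 CPM with water, although 2 rose and 6 fell singly. Summed monocyte markers reached 1259 to 1451 CPM with MDP and 890.1 to 933 CPM with water, with 6 of 11 higher and 2 lower. Ly6c2 rose by 0.81 ± 0.08, while the 2 lower ones were Ccr2 (log2 -0.75) and Spn. The call of Spn was lost without MDP replicate 1 or water replicate 1 or 3. Dendritic cell markers summed to 327 to 433 CPM with MDP and 142 to 163 CPM with water, 3 of 8 higher and 1 lower, and most of that sum was Ccr7. Neutrophil markers were at 2326 to 2478 CPM with MDP and 2410 to 2428 CPM with water (1 of 11 higher, Retnlg at 0), and stroma markers at 27.4 to 30.1 CPM with MDP and 31.2 to 34.0 CPM with water. Osteoclast markers summed to 734 to 783 CPM with MDP and 945 to 963 CPM with water, with 2 of 7 higher and 3 lower (1 lower without MDP replicate 3 or water replicate 1). Endothelial markers summed to 363 to 413 CPM with MDP and 493 to 526 CPM with water. Singly, 1 of 4 tested rose (Pecam1) and 1 fell (Vwf), at a median log2 fold change of 0.03. T and NK cell markers summed to 397 to 425 CPM with MDP and 473 to 506 CPM with water. Only 3 of those 10 markers were tested, and 1, Il7r, was called, as lower. Mast cell, basophil and eosinophil markers summed to 50.6 to 73.6 CPM with MDP and 70.2 to 72.4 CPM with water. Calcr, Ncr1, Mcpt4 and Gp1bb, single markers of osteoclasts, NK cells, mast cells and platelets, were at 0 in all 6 libraries. Other markers in the same lists were counted, so these zeros do not show that such cells were absent. What part the shifts in the summed monocyte, dendritic cell, osteoclast, endothelial, and T and NK cell markers have in the other changes was not tested.

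The same treatment in wild-type macrophages gave 731 higher genes (5.13%) and 573 lower (4.02%) of 14263 tested in their own 6 libraries, 9.14% in all. The difference between genotypes was tested in the 12 libraries of both as an interaction: 1237 of 15013 genes (8.24%) responded differently, 518 with a higher log2 response in knockout cells (3.45%) and 719 with a lower one (4.79%). That count depended most on 1 library: without wild-type water replicate 3 it was 4063, without wild-type water replicate 1 or 2 it was 1495 and 1267, and without any 1 of the other 9 libraries it was 646 to 765.

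Of 29 tested cytokines and chemokines, 2 had a higher response in knockout cells and 3 a lower one. Without wild-type water replicate 3 it was 11 and 5 of 31, with 4063 genes called over all genes. For 3 leading cytokines no difference in response between the genotypes was detected. The log2 response of Il6 was 2.96 ± 0.14 in knockout and 2.83 ± 0.32 in wild-type cells, a difference of 0.12 (95% interval -0.68 to 0.92; adjusted p = 0.873 by edgeR). For Il1b it was 2.33 ± 0.08 in knockout and 2.37 ± 0.29 in wild-type cells, a difference of -0.04 (95% interval -0.69 to 0.60). Il12b differed by -1.13 (95% interval -2.42 to 0.16, adjusted p = 0.261 by edgeR). None of these 3 differences passed, with or without wild-type water replicate 3 (-0.13, -0.42 and -0.64 without it), and the intervals leave room for sizeable differences. The levels were not alike: Il1b had 333, 409 and 418 CPM in knockout cells with MDP and 42.9, 48.1 and 36.8 CPM in wild-type cells with MDP, and the water libraries differed in the same direction, at 74.3, 77.8 and 80.0 CPM in knockout and 7.11, 5.6 and 12.1 CPM in wild-type cells. Slc7a2 rose in knockout cells by 1.48 ± 0.05 but stood at -0.04 ± 0.25 in wild-type cells, a difference of 1.52 ± 0.27 (adjusted p = 0.00639 by edgeR), or 1.75 without wild-type water replicate 3.

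The interferon program responded less in knockout cells. In wild-type cells 29 of the 38 genes rose, with a median of 1.87, against a knockout median of 0.61. Between genotypes 17 of 38 differed, all lower in knockout. Without wild-type water replicate 3 it was 29 of 38, all lower, but calls over all genes also rose there, from 1237 to 4063. Isg15 had 28.5, 41.2 and 30.9 CPM in knockout cells with MDP and 58.8, 49.9 and 43.9 CPM in wild-type cells with MDP. With water it had 14.7, 15.2 and 20.4 CPM in knockout and 5.85, 11.4 and 6.36 CPM in wild-type cells. The knockout libraries were thus the lower ones with MDP and the higher ones with water. The log2 response was 1.02 ± 0.18 in knockout and 2.70 ± 0.29 in wild-type cells, a difference of -1.69 ± 0.35 (adjusted p = 0.0132 by edgeR), or -1.57 without wild-type water replicate 3. Oasl1 responded by 1.22 ± 0.16 in knockout and 2.86 ± 0.22 in wild-type cells (adjusted p of the difference = 0.00855 by edgeR), a difference of -1.65 or, without that library, -1.79. Ccr7 showed the same order, 1.51 ± 0.14 in knockout and 2.73 ± 0.29 in wild-type cells, and so did Mmp9, 0.93 ± 0.12 in knockout and 4.03 ± 0.41 in wild-type cells (difference -3.10 ± 0.43). Without wild-type water replicate 3 these differences were -0.96 for Ccr7 and -3.66 for Mmp9.

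The cell cycle genes also responded differently. None of the 35 was called in wild-type cells, where the median was 0.71 against -0.65 in knockout cells. Between genotypes 9 differed, all lower in knockout. Without wild-type water replicate 3 it was 32 of 35, in the fit that called 4063 genes over all genes. Kif23 had 16.9, 21.5 and 24.6 CPM in wild-type cells with MDP and 18.2, 17 and 7.19 CPM with water, where replicate 3 was the lowest. Its difference between genotypes was -1.46 ± 0.38 (adjusted p = 0.0393 by edgeR) and -1.14 without that library. With water, the knockout libraries held more of it, 32.2, 29.2 and 31.7 CPM. Of the fibroblast and stroma markers, 4 of 13 had a higher response in knockout cells. It was 12 of 13 without wild-type water replicate 3, again in the fit with 4063 calls over all genes. They summed to 31.2 to 34.0 CPM in knockout water and 85.9 to 389 CPM in wild-type water, and 9 of 13 fell with MDP in wild-type cells, at a median of -3.15, while of 9 tested in knockout cells 1 rose and 1 fell. Their part in the difference between genotypes was not tested.

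**Figure D5:**
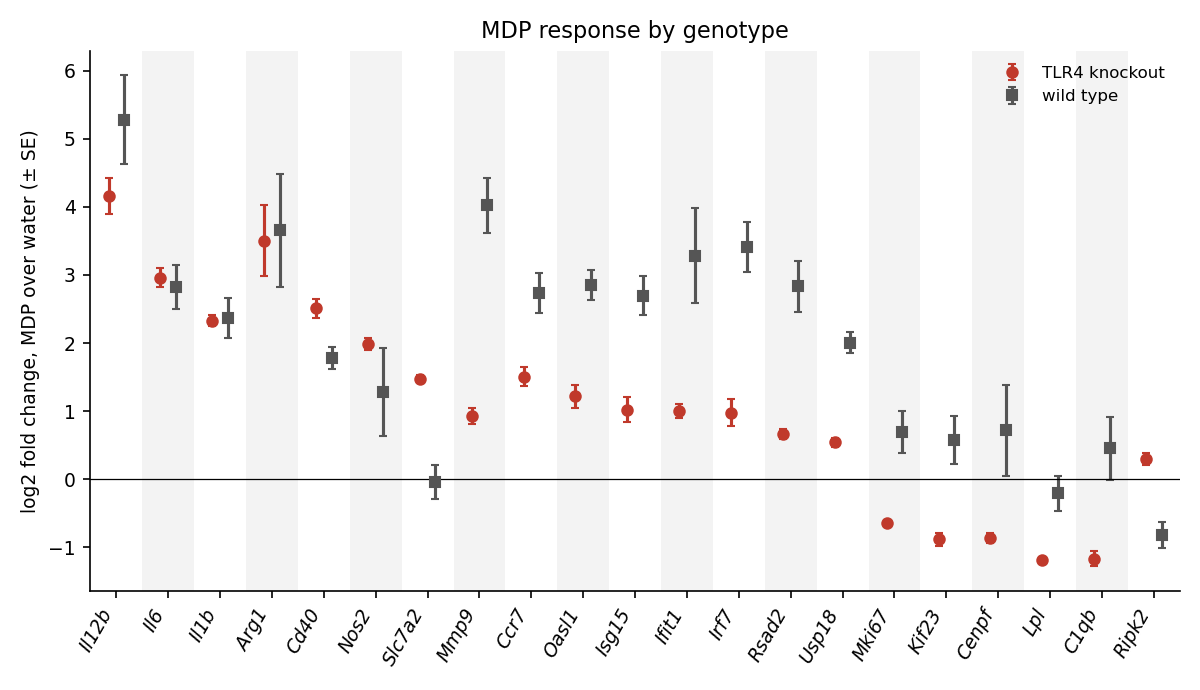
Log2 fold change, MDP over water, with its SE for 21 genes, in TLR4-knockout macrophages (red circles) and wild-type macrophages (grey squares), each fitted to its own 6 libraries. Il6 and Il1b lie side by side, interferon genes such as Isg15 (1.02 against 2.70) lie lower in knockout cells, and the wild-type error bars are the longer ones for most genes.

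MDP was also set against GM within knockout cells, which share the MDP libraries with the comparison above. Of 14195 genes tested, 1324 were higher with MDP (9.33%) and 1189 lower (8.38%), 17.7% in all, and at least 2-fold 234 were higher (1.65%) and 64 lower (0.451%). Of 28 cytokines and chemokines 23 were higher with MDP than with GM and none lower, at a median of 0.96, and of 38 interferon genes 29 were higher and none lower, at 0.86. Il6 had 21.1, 27.9 and 28.5 CPM with MDP and 3.63, 3.05 and 3.22 CPM with GM (log2 2.97 ± 0.14), and Il12b 149, 239 and 214 CPM with MDP and 13.8, 17.3 and 19.4 CPM with GM (log2 3.58 ± 0.27). The GM libraries of Il6 lay in the range of the water libraries, and those of Il12b just above it. Il1b lay between, with 144, 128 and 135 CPM under GM. Nos2 had 87.1, 77.2 and 66 CPM with MDP, 11.6, 12.1 and 9.58 CPM with GM and 19.97, 18.3 and 20.3 CPM with water, so that GM was below water. Of 26 NRF2 genes 18 were lower with MDP than with GM and 1 higher, although 13 were higher with MDP than with water. Slc40a1 (log2 -1.72 ± 0.06) and Itgb3, an integrin subunit (-1.16 ± 0.16), were among the 6 named for the largest falls relative to GM. Cell cycle genes were lower with MDP than with GM in 23 of 35 and higher in none. With all 18 libraries in the fit, 242 genes differed between MDP and GM.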

How the data were processed

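RNA from 18 samples (2 genotypes, 3 treatments, 3 replicates each) was sequenced. Per the submitters' processing notes, the tools were HISAT2 2.0.5 and featureCounts 1.5.0-p3 with genome build GRCm39. The deposited table used holds the authors' raw read counts per gene, with no normalization. The use of strand, the annotation release and the treatment of reads shared between genes are not given in the sources used here.

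Samples were grouped by their labels. Counts were tested in R 4.3.3 with edgeR 4.0.16 (filterByExpr with a minimum count of 10, TMM scaling, robust quasi-likelihood F test, two-sided, Benjamini-Hochberg adjusted p below 0.05): MDP against water and MDP against GM in knockout cells on 6 libraries each, and the difference between genotypes on 12. SE is that of the fitted log2 fold change. Levels are CPM on TMM factors of all 18 libraries. The fit was tested on simulated data. Depth was 15532973 to 21128507 counts per library, and differences are judged by the spread between replicates. DESeq2 1.42.0 and limma 3.58.1 were alternatives.

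The samples, gene lists and tests were chosen with earlier results of these data known. Genes were named by rule: called genes without overlap between groups and at 5 CPM or more in the higher group, the 15 with the largest change and the 10 with the smallest p in each direction; 16 fixed genes; up to 4 called members per list and direction; and 6 per direction in the other tests. Genes that the rule does not name are singled out where they appear, except for some shown in figures or as a promoter. Those are Ifit1, Irf7, Mki67, Rsad2 and Usp18.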

Additional observations from a re-analysis of the deposited data

Results flagged for a closer look

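The log2 response to MDP differed between the genotypes (knockout minus wild type, tested as an interaction in edgeR) for more named genes than are listed here; these are the 6 in each direction that the naming rule takes by size, with Ripk2 and Mmp9 from the fixed genes. The fitted difference was positive for Cyp26b1 (7.02), Mcpt8 (5.97), Zfp811 (5.69), Vgll3 (5.39), Serpinf1 (5.08) and Col4a1 (4.94). All but Col4a1 rest on a group at or near 0 counts, where the fitted value depends on the prior count and is neither a size nor a bound. Cyp26b1, Vgll3 and Serpinf1 were too low in knockout cells to be tested there, and in wild-type cells they were lower with MDP; Cyp26b1, a retinoic acid hydroxylase, had 0.0547, 0.156 and 0 CPM with MDP and 9.93, 11.9 and 45.4 CPM with water. Mcpt8, a basophil protease, was counted in no wild-type MDP library and at 0.454, 0.304 and 0.498 CPM in wild-type water, and had 4.76, 6.53 and 8.01 CPM with MDP and 7.12, 5.79 and 6.39 CPM with water in knockout cells, and its wild-type response was too low to be tested on its own. Zfp811, a zinc finger gene, was at 0 CPM in all 3 wild-type MDP libraries and at 0.101, 0 and 0.111 CPM in wild-type water, and had 5.46, 5.47 and 7 CPM with MDP and 1.33, 1.51 and 1.18 CPM with water in knockout cells, so that no wild-type response was tested for it either. Col4a1, a basement membrane collagen, had 4.7, 3.9 and 4.19 CPM with MDP and 1.11, 1.47 and 0.621 CPM with water in knockout cells, against 3.39, 3.54 and 3.1 CPM with MDP and 34.9, 30.8 and 13.7 CPM with water in wild-type cells, so the genotypes moved in opposite directions.

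The fitted difference was negative for Lipg (-4.89), Scube1 (-3.84), Scube3 (-3.76), Slc4a8 (-3.47), Lrrc14b (-3.39), Rnaset2a (-3.34) and Mmp9 (-3.10). Lipg and Scube3 were near 0 CPM in knockout cells, and Scube3 was too low to be tested there. Slc4a8, a bicarbonate transporter, had 6.16, 8.81 and 7.17 CPM with MDP and 7.28, 7.48 and 8.5 CPM with water in knockout cells, against 96.7, 105 and 94.6 CPM with MDP and 13.8, 11.8 and 2.21 CPM with water in wild-type cells. Lrrc14b had 3.84, 2.63 and 4.07 CPM with MDP and 13.9, 13.8 and 11.5 CPM with water in knockout cells, and 17, 17.5 and 22.8 CPM with MDP and 6.71, 6.27 and 7.41 CPM with water in wild-type cells, opposite directions. Rnaset2a, a ribonuclease with a near-identical copy between which reads may be split, rose in both genotypes. Ripk2, the kinase downstream of NOD2, differed by 1.12: it had 25.4, 26.6 and 28.8 CPM with MDP and 22.4, 20.02 and 23.8 CPM with water in knockout cells, against 22.4, 22.3 and 24.2 CPM with MDP and 32.4, 37 and 53.1 CPM with water in wild-type cells. Without wild-type water replicate 3 the differences were 5.97 for Cyp26b1, 5.84 for Mcpt8, 5.31 for Zfp811, 5.69 for Vgll3, 5.54 for Serpinf1 and 5.23 for Col4a1. They were -5.01 for Lipg, -3.32 for Scube1, -3.33 for Scube3, -3.00 for Slc4a8, -3.46 for Lrrc14b, -3.35 for Rnaset2a, -3.66 for Mmp9 and 0.88 for Ripk2, each with an adjusted p below 0.05 in edgeR.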

How the results depend on the processing

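The 2955 genes called between MDP and water in knockout cells (1475 higher, 1480 lower) numbered 2307 to 2935 with RLE or upper quartile scaling, no filter, a minimum count of 50, DESeq2, limma-voom with a spread per group, or no robust step, and 2359 to 2946 without any 1 library. The fit of all 18 libraries gave 427 (246 higher, 181 lower), and at least 2-fold it gave 112 higher and 24 lower against 269 and 115. The minimum count of 50 gave 163 and 56 at least 2-fold. For MDP against GM the fit of all 18 libraries gave 242 (175 higher, 67 lower) against 2513 (1324 and 1189). The spread between replicates was 5.69% to 6.49% in the knockout groups and up to 35.4% in the wild-type ones.

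For the difference between genotypes, DESeq2 called 1860 genes (861 higher) against 1237 (518). Leaving out 1 library gave 646 to 4063 (272 to 1889 higher, 374 to 2174 lower), the highest without wild-type water replicate 3. Without any 1 knockout or wild-type MDP library it was 646 to 765; the cause was not tested. Replicate numbers did not pair the samples (correlations of deviations of 0.07, -0.02 and 0.01 for the same number), and not every library correlated best with its own number. With the replicate block 2827 genes were called between MDP and water, 2240 between MDP and GM and 977 between genotypes.

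Of 197 named genes called between MDP and water, 71 were also called in the fit of all 18 libraries. No named gene that was called reversed with RLE scaling, all 18 libraries in the fit, the replicate block or any 1 library left out. Named genes were not followed singly under the other settings. The depth, 15532973 counts or more per library, limits what can be seen of genes near 1 CPM, such as Il10.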

Other observations

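Genes with a transcription factor family in the count table gave 95 rises among 869 tested (10.9%) and 79 falls (9.09%), against 10.4% and 10.5% of all tested genes. The genes named here were chosen after their values were seen, from among the largest called changes in each direction. The rises included Nr4a2, an orphan nuclear receptor (log2 1.72), Glis3 (1.58), Ikzf4, a lymphoid regulator (1.27), Stat4, which signals downstream of the IL-12 receptor (1.22), and Vdr, the vitamin D receptor (1.16). The falls included the cell cycle repressors E2f7 (-0.93) and E2f8 (-0.80), Pparg (-0.79) and Myc (-0.78). All had an adjusted p below 0.05 in edgeR.

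Gapdh, an enzyme of glycolysis with many processed copies in the genome, was listed at 15.8, 14.9 and 13.3 CPM with MDP and 105, 129 and 13 CPM with water in knockout cells. The water libraries 1 and 2 stood above all others, and the difference did not pass (log2 -2.49, adjusted p = 0.168 by edgeR). It was picked out after its values were seen, and how reads shared with its copies were counted is not given in the sources used here.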
